A study of Mus musculus with 6 samples.

Results

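Immediate-early genes are switched on by growth factors, cytokines, stretch and stress before any new protein has to be made. The 10 genes described here are Fos, Fosb, Jun, Junb, Jund, Egr1, Atf3, Ier2, Ier3 and Myc. They were chosen by name, with earlier results of these data known, and all 10 were found among the 55401 Ensembl genes of the deposited table. RNA was sequenced from glomeruli, the filtering units of the mouse kidney, in 3 libraries labelled Control and 3 labelled DKD, which the series title spells out as diabetic kidney disease. The labels give Control and DKD as the genotype and glomeruli as the tissue. They do not give the strain, the age, how the disease was induced or whether each library came from its own animal, so each p-value reflects only how far these libraries spread, which may be technical.

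Fos and Jun proteins pair through leucine zippers to form AP-1, a transcription factor that binds DNA through an adjoining basic region. Jun proteins can also pair with Atf3, a zipper protein of the stress response. Egr1 is a zinc-finger factor, Myc works as a partner of Max on genes of growth and ribosome production, and Ier2 and Ier3 are small response proteins. In the kidney these transcripts are known to respond within a short time to injury and to the handling of tissue.

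Total counts ran from 71154026 to 83576494 per library. Levels are given in CPM, the share of a library's counts on the usual scale after adjusting the libraries with TMM factors. A value after ± is an SD with n = 3 beside a level and a standard error (SE) beside a log2 fold change. All 20 podocyte markers had counts in every library, which does not measure how pure the glomeruli were. They took 0.0914% to 0.133% of the counts in Control and 0.0696% to 0.0846% in DKD. Markers of the proximal tubule, a neighbouring segment, took 3.71% to 5.8% in Control and 2.14% to 3.22% in DKD, and on both lists every Control share exceeded every DKD share (exact permutation p 0.1, two-sided, the smallest possible for 3 against 3). By the edgeR test described below, 2 proximal tubule markers and 1 mesangial marker were called lower, where 1.16% of all genes were called. Of the podocyte, endothelial, parietal, distal nephron and leukocyte markers 0 were called. Without that threshold, 18 of 20 podocyte and 19 of 20 proximal tubule markers were lower in DKD. Of these, 11 (55%) and 10 (50%) had an unadjusted edgeR p under 0.05, against 22.6% of all genes. Also lower in DKD were 11 of 14 endothelial, 11 of 14 mesangial and 8 of 12 distal nephron markers. In the other direction, 15 of 20 leukocyte and 7 of 10 parietal markers were higher in DKD. The proximal tubule list took a larger share than the podocyte list in every library, so the members' levels cannot be assigned to glomerular cells alone. With bulk RNA, fewer cells of a type and less RNA per cell cannot be told apart. Control replicate 3 stood apart from its group, with log CPM correlations across genes of 0.956 and 0.954 with Control replicates 1 and 2, which correlated at 0.980 with each other. It also had the highest proximal tubule share (5.8%) and the lowest leukocyte share (0.0124%, against 0.0291% and 0.0328% in the other Control libraries).

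The start regions of 3 members are shown because Fos, Jun and Atf3 stand for the Fos, Jun and ATF branches of the zipper family, and because cAMP and stress signals are known to reach such genes through sites close to the start. They were picked with their motif matches known. Each line holds the 250 bases before the RefSeq transcription start on build GRCm38.p6, 5′ to 3′ on the strand of the gene. Capitals mark a TATA box (TATAAA), the core TGACG of a cAMP response element (CRE), or the related octamer TGACNTCA, each searched on both strands. Fos lies on the plus strand at chr12:85473640-85473889, Jun on the minus strand at chr4:95052223-95052472 and Atf3 on the minus strand at chr1:191183334-191183583.
Fos: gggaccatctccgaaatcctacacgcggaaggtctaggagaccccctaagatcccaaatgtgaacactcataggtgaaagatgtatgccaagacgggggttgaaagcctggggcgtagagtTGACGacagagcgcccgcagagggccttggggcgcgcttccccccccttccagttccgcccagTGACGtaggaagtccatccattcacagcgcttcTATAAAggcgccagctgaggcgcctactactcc
Jun: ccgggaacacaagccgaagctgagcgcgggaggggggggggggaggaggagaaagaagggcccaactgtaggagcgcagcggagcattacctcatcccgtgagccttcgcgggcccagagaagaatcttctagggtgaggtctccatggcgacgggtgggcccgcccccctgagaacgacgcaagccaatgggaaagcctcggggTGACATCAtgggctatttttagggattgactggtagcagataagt
Atf3: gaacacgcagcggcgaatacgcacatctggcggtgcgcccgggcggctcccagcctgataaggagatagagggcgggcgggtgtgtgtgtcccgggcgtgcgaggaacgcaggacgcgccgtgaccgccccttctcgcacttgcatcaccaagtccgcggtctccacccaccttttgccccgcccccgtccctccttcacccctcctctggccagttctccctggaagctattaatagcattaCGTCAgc

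In Fos the TATA box began 33 bases before the start and the nearer CRE core 66 bases before it. In Jun the octamer TGACATCA began 45 bases before the start, and in Atf3 the core lay on the opposite strand from 7 to 3 bases before it. The CRE core was found in 4 of the 6 member windows searched (Fos, Fosb, Junb and Atf3) and in 17.8% of all 32851 windows of that length. The octamer TGACNTCA, which contains the core when N is G, was found in Jun and in 7.49% of all windows. The TATA box was found in Fos and in 12.4% of windows, a CCAAT box (CCAAT) in 3 members and 33.8%, and a GC box (GGGCGG) in 5 members and 32.7%. An EGR site (GCGNGGGCG), which overlaps a GC box, was found in Fosb and in 4.7% of windows. An AP-1 site (TGANTCA, 6.75% of windows) and a CArG box (1.47%) were in none of the 6 windows, which says only that these letters are not within these 250 bases. Such matches describe the letters and do not show that a factor binds. Jund was not searched because the RefSeq start lies 1210 bases from the start in GENCODE. Egr1, Ier2 and Myc are named only.

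None of the 10 members passed the edgeR quasi-likelihood test at a Benjamini-Hochberg adjusted p under 0.05 over the 19717 genes tested, where 1.16% of all genes passed (228, with 0.725% higher and 0.431% lower in DKD). The split of these calls depended on the scaling, with 143 higher and 85 lower under TMM and 101 higher and 174 lower under library totals. At an adjusted p under 0.1 there were 2, Jund and Myc, against 7.5% of all genes. All 10 passed the filter on low counts and had a count in every library. At an unadjusted p under 0.05 there were 3, Jun, Jund and Myc, against 22.6% of all genes. The same 3 were the members whose groups did not overlap, each with DKD above Control, against 30.7% of all genes in either direction and 15.5% with DKD above Control. A share of 30% is close to the 30.7% of all genes. The fold change was above 0 for 9 of the 10 members and for 50.2% of all genes tested, and the median log2 fold change was 0.63 for the members and 0.003 for all genes. Because the members were chosen with earlier results of these data known, this direction and median describe the list and carry no test. The count was also 0 with limma-voom and with a robust dispersion in edgeR. DESeq2 called 3, again Jun, Jund and Myc, where it called 13.7% of the 18167 genes to which it gave an adjusted p.

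**Figure D1:**
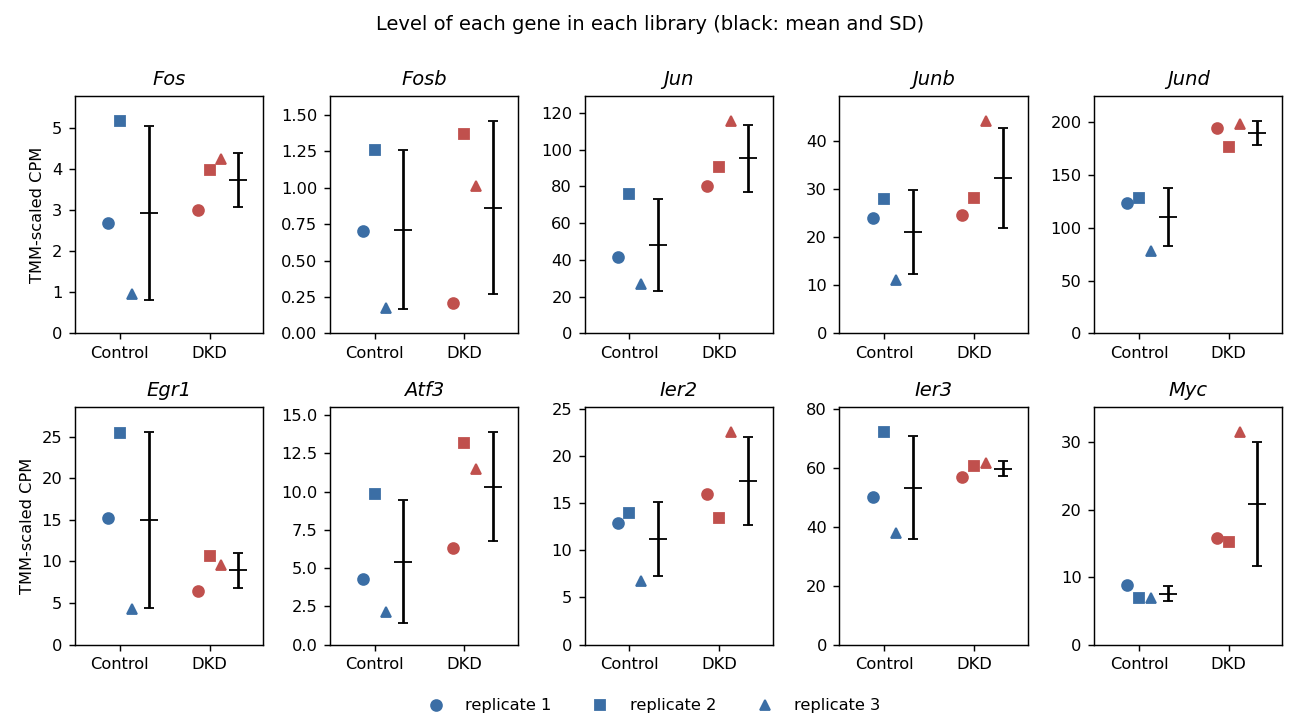
Level of each of the 10 genes in each library, in TMM-scaled CPM on linear axes from 0. Circles, squares and triangles are replicates 1, 2 and 3 of each group, blue for Control and red for DKD, and the black bar is the mean with its SD. Only Jun, Jund and Myc show every DKD library above every Control library, and Control replicate 3 is the lowest Control library for every gene except Myc.

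Myc had the largest fold change among the members. Myc (ENSMUSG00000022346), the growth regulator that pairs with Max, was measured at 8.8, 6.86 and 6.92 CPM in Control replicates 1 to 3 and at 15.8, 15.2 and 31.5 CPM in DKD replicates 1 to 3. Every DKD library lay above every Control library, the Control libraries lay close together, and DKD replicate 3 stood well above the other DKD libraries. The means were 7.53 ± 1.1 and 20.8 ± 9.22 CPM. On the log2 scale DKD exceeded Control by 1.47 ± 0.30 (edgeR adjusted p 0.0624). Without DKD replicate 3 the log2 fold change was 1.04, with an edgeR adjusted p of 0.120. Over the alternatives the adjusted p ran from 0.000235 with DESeq2 to 0.190 without Control replicate 2. Myc was the one member for which Control replicate 3 was not the lowest library.

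Jund was the most abundant member per kilobase and had the smallest spread within the groups. JunD, the Jun protein that is made most constantly in resting cells, is encoded by Jund (ENSMUSG00000071076), measured at 124, 128 and 78.1 CPM in Control and 195, 177 and 198 CPM in DKD. The DKD libraries spanned a narrow range above all of Control. Its log2 fold change came to 0.79 ± 0.20, with an edgeR adjusted p of 0.0871 (0.00424 with DESeq2, the lowest, and up to 0.335 over the alternatives). The gene model Gm11175 lies over 52.6% of the exonic bases of Jund on the opposite strand, and although the libraries were made with a dUTP method that keeps the strand, the setting used in counting is not given here. Gm11175 itself was counted at no more than 0.166 CPM in any library.

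Jun, the central partner of AP-1 dimers (ENSMUSG00000052684), was measured at 41.6, 75.6 and 26.8 CPM in Control and 80.2, 90.3 and 116 CPM in DKD. The lowest DKD library lay just above the highest Control library. The difference was 0.99 ± 0.36 on the log2 scale, with an edgeR adjusted p of 0.164 (0.0429 with DESeq2, the lowest, and up to 0.394 without DKD replicate 3). Junb, a Jun family member that often acts against Jun on shared targets (ENSMUSG00000052837), was measured at 24, 28 and 11.2 CPM in Control and 24.6, 28.1 and 44.2 CPM in DKD. DKD replicates 1 and 2 lay close to Control replicates 1 and 2, so that the difference of 0.62 ± 0.36 on the log2 scale (edgeR adjusted p 0.354) rested on the low Control replicate 3 and the high DKD replicate 3. Leaving out Control replicate 3 gave 0.31, and leaving out DKD replicate 3 gave 0.33. Junos and Prdx2 lie over 7.28% and 7.52% of the exonic bases of Jun and Junb on the opposite strand. Junos was counted at no more than 0.887 CPM in any library, and Prdx2 at 142, 138 and 171 CPM in Control and 205, 176 and 203 CPM in DKD.

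The Fos partners were low and scattered. Fos (ENSMUSG00000021250), which cannot pair with itself and binds DNA with a Jun protein, was measured at 2.68, 5.16 and 0.951 CPM in Control and 2.99, 3.96 and 4.25 CPM in DKD. The Control libraries spread on both sides of all DKD libraries. The log2 fold change was 0.35 ± 0.55 (edgeR adjusted p 0.750), and it was −0.07 without Control replicate 3 and 1.04 without Control replicate 2. Fosb, its close relative (ENSMUSG00000003545), rested on 59, 102 and 13 counts in Control and 14, 99 and 72 counts in DKD. Both groups held 1 library with very few counts, and the log2 fold change of 0.28 ± 0.84 had an edgeR adjusted p of 0.879. Leaving out Control replicate 3 gave −0.19, and leaving out DKD replicate 2 gave −0.23. A difference in Fosb was not detectable at this depth and spread.

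Atf3 (ENSMUSG00000026628), a stress-induced factor that can repress AP-1 and ATF targets, was measured at 4.28, 9.87 and 2.1 CPM in Control and 6.33, 13.2 and 11.5 CPM in DKD. Control replicate 2 lay above DKD replicate 1, so the groups overlapped. The log2 fold change was 0.93 ± 0.55 (edgeR adjusted p 0.359). It was 0.54 without Control replicate 3 and 1.69 without Control replicate 2, so each of these Control libraries moved it by a large part of its size in opposite directions.

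Ier2, a short nuclear protein (ENSMUSG00000053560), was measured at 12.9, 13.9 and 6.69 CPM in Control and 16, 13.5 and 22.5 CPM in DKD. The groups overlapped through DKD replicate 2, and the log2 fold change was 0.63 ± 0.31 (edgeR adjusted p 0.275), or 0.37 when Control replicate 3 was left out and 0.40 when DKD replicate 3 was. Ier3, which modulates cell survival (ENSMUSG00000003541), was measured at 49.9, 72 and 37.7 CPM in Control and 56.8, 60.6 and 61.4 CPM in DKD. The Control range enclosed every DKD library, for a log2 fold change of 0.16 ± 0.22 (edgeR adjusted p 0.704), which became −0.03 without Control replicate 3.

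Egr1 was the 1 member with a fold change below 0. Egr1 (ENSMUSG00000038418) was measured at 15.2, 25.4 and 4.28 CPM in Control and 6.5, 10.6 and 9.63 CPM in DKD. Control replicates 1 and 2 lay above all DKD libraries, and Control replicate 3 lay below all of them. The log2 fold change was −0.75 ± 0.56 (edgeR adjusted p 0.471). Without Control replicate 3 it was −1.19, with an edgeR adjusted p of 0.0758, and without Control replicate 2 it was −0.13, with an adjusted p of 0.929.

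**Figure D2:**
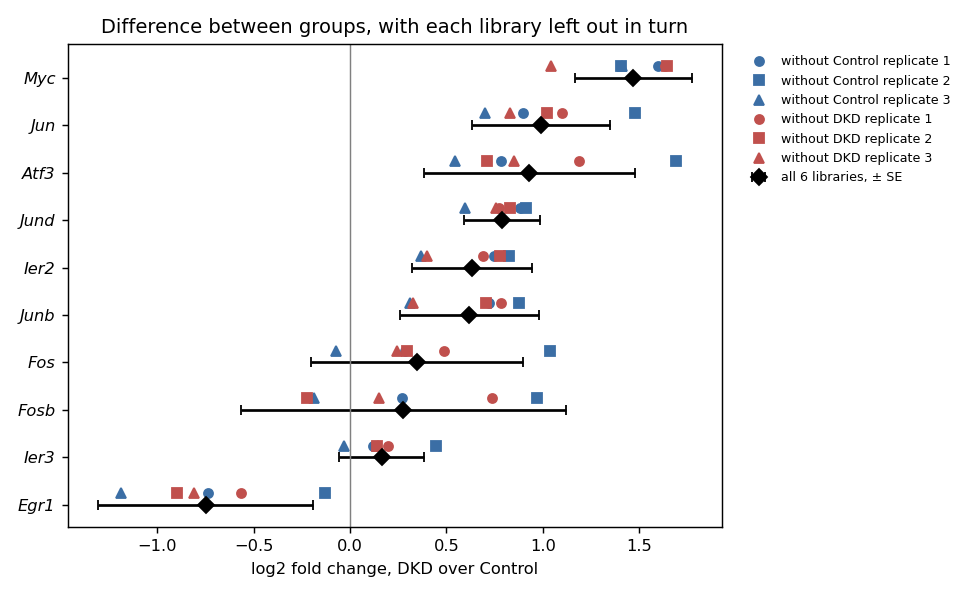
Log2 fold change of DKD over Control for each gene (horizontal axis), as a black diamond with its SE for all 6 libraries and as coloured symbols with 1 library left out at a time. Leaving out Control replicate 2 (blue square) moves Fos, Atf3 and Egr1 to the right, leaving out Control replicate 3 (blue triangle) moves them to the left, and Myc stays between 1.04 and 1.64.

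The libraries differed from each other across the whole set of members. Among the Control libraries, replicate 3 was lowest for 9 of the 10 members, against 42.9% of all genes tested. It was also the lowest of all 6 libraries for these 9, against 26.1% of all genes. Several marker lists shared this, with Control replicate 3 lowest of Control for 19 of 20 leukocyte, 9 of 10 parietal, 12 of 14 endothelial and 12 of 14 mesangial markers. It was lowest for 14 of 20 podocyte, 5 of 12 distal nephron and 0 of 20 proximal tubule markers. Summed endothelial markers took 0.0515% of its counts, against 0.0975% and 0.087% in Control replicates 1 and 2. Mesangial markers took 0.0516%, against 0.0999% and 0.0956%, and parietal markers 0.0273%, against 0.0473% and 0.0498%. Control replicate 2 was the highest Control library for 9 members, and DKD replicate 3 the highest DKD library for 7. The shares of all genes highest in these libraries were not computed, so these counts only describe the members. The within-group SD of log2 CPM, pooled over both groups, was 1.38 for Fosb, 0.97 for Egr1, 0.88 for Fos and 0.88 for Atf3, against a median of 0.298 over all genes tested. It was smallest for Jund (0.29), Ier3 (0.33) and Myc (0.44). Fosb, Egr1, Fos and Atf3 thus varied most within the groups, and Jund, Ier3 and Myc least.

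Other features also differed between the libraries, and their part in the result was not tested. Heat-shock genes, which encode chaperones and respond to stress and handling, differed between the Control libraries. Of 13, 6 were highest of all libraries in Control replicate 2, 6 in Control replicate 3 and 1 in DKD replicate 3, and the shares over all genes were not computed. The widest gap was that of the Hspa1 copies in Control replicate 2. Hspa1a was measured at 335 CPM in that library and at 38.7 to 58.2 CPM in the other 5 libraries, and Hspa1b at 407 CPM against 54.1 to 86.1 CPM (Hspa1b is named after its values were seen, and the counts of these near-identical copies can be split between them). As a list the 13 heat-shock genes had 0 past the edgeR threshold, 0 at an unadjusted p under 0.05, 4 higher and 9 lower in DKD and a median log2 fold change of −0.08. Dnaja1, a co-chaperone, was measured at 298 ± 109 and 202 ± 21 CPM and was highest in Control replicate 3, at 395 CPM. Its log2 fold change of −0.56 ± 0.27 (edgeR adjusted p 0.274) was −0.31 without that library. Leukocyte markers, whose cells also express immediate-early genes, took 0.0124% to 0.0328% of the Control counts and 0.017% to 0.0387% of the DKD counts, with Ms4a1 and S100a8 at 0 in at least 1 library.

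**Figure D3:**
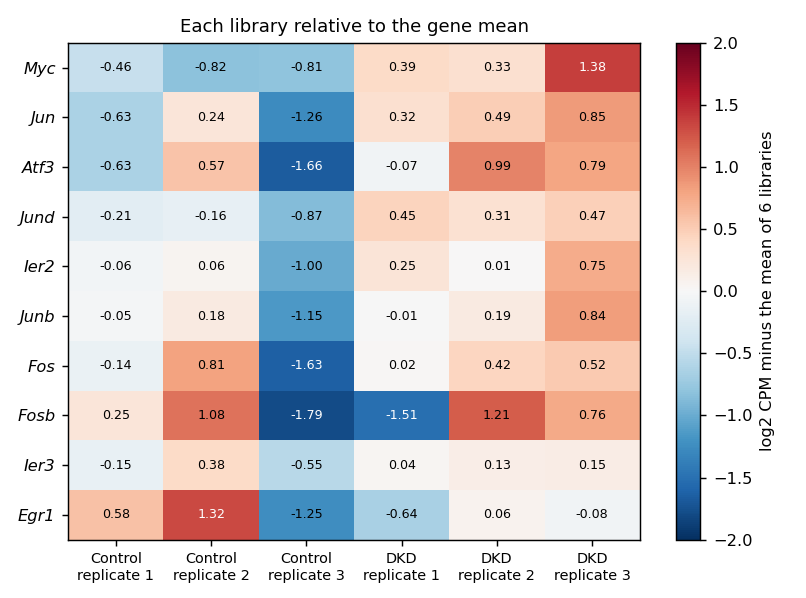
Log2 CPM of each gene (rows, ordered by fold change) in each library (columns), minus its mean over the 6 libraries, with red above and blue below. Control replicate 3 is blue in every row, from −0.55 for Ier3 to −1.79 for Fosb, and Egr1 is highest in Control replicate 2 (1.32).

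Ratios between members within a library were also compared. Egr1 had 5.68, 4.93 and 4.5 counts for each count of Fos in Control and 2.17, 2.68 and 2.27 in DKD. Every Control ratio exceeded every DKD ratio, and the Control libraries lay close together although their Egr1 levels did not. Against Atf3, Egr1 was likewise higher in every Control library. Egr1 had 3.55, 2.58 and 2.04 counts for each count of Atf3 in Control and 1.03, 0.805 and 0.84 in DKD. Over Jun the ratio was 0.365, 0.336 and 0.16 in Control and 0.081, 0.118 and 0.0834 in DKD. The ratio was lower in every DKD library than in every Control library for 4 of the 9 other members (Fos, Jun, Junb and Atf3) and overlapped for 5. All 9 ratios share the Egr1 count, so they are not independent. Of ratios without Egr1, those of Myc, Fos and Jund over Jun were computed, and each overlapped between the groups. The share among ratios of other genes was not computed, and for single genes the groups did not overlap for 30.7%. These ratios were chosen after the values were seen and carry no test. They need no scaling for library size, but the trend with transcript length given below does not cancel in them. The longest transcript has 4484 bases for Egr1, against 2108 for Fos, 3189 for Jun, 1809 for Junb and 1984 for Atf3. The part of length in these ratios was not tested, and they do not show which member differed.

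**Figure D4:**
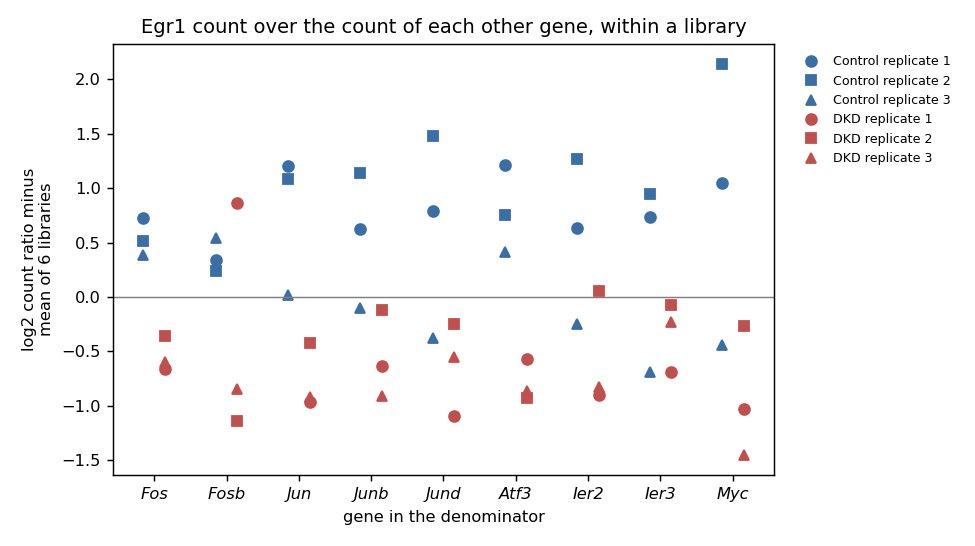
Count of Egr1 divided by the count of each other gene in the same library, as log2 minus the mean of the 6 libraries (vertical axis), for the 9 genes in the denominator (horizontal axis). Blue symbols are Control and red symbols DKD, with shapes for replicates, and the colours separate over Fos, Jun, Junb and Atf3.

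Divided by the length of the longest transcript, members spanned a wide range of levels. In Control, Jund had 65.9 ± 16.5 and Ier3 47 ± 15.4 CPM per kilobase, and these neighbours overlapped. Next came Jun (15.1 ± 7.86), Junb (11.6 ± 4.87), Ier2 (7.33 ± 2.57), Egr1 (3.34 ± 2.36), Myc (3.22 ± 0.472), Atf3 (2.73 ± 2.02) and Fos (1.39 ± 1.01 CPM per kilobase), each overlapping its neighbour in that order, with Fosb lowest at 0.188 ± 0.144. In DKD the order of Jund, Ier3, Jun, Junb and Ier2 was the same and Myc (8.91 ± 3.94 CPM per kilobase) had a higher mean than Atf3 (5.2 ± 1.79), which it overlapped. Egr1 (1.99 ± 0.479) lay below both in every DKD library and overlapped Fos (1.77 ± 0.313). Jun, Junb, Jund and Ier2, 4 of the 10, have a single exon in the annotation used.

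Other immediate-early genes, from a list of 30 of which 29 were tested, were mostly higher in DKD, without any passing the test. With edgeR 0 passed, 7 had an unadjusted p under 0.05 (24.1%, against 22.6% of all genes), and all 7 were higher in DKD. In all, 20 were higher and 9 lower in DKD, with a median log2 fold change of 0.28, and the groups did not overlap for 8 (27.6%, against 30.7%). Control replicate 3 was the lowest Control library for 26 of the 29. Ier5l, a relative of Ier2, was measured at 9 ± 2.42 and 19.8 ± 6.18 CPM, a log2 difference of 1.14 ± 0.28 (edgeR adjusted p 0.0851). Trib1, a pseudokinase that directs proteins to degradation, was measured at 21.2 ± 3.61 and 34.5 ± 6.19 CPM, a log2 difference of 0.70 ± 0.18 (adjusted p 0.0928). DESeq2 called both.

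Among 19 basic-zipper factors that can partner with or resemble AP-1, 1 was called higher and 0 lower with edgeR, where 1.16% of all genes were called. Cebpb, a zipper factor of inflammatory and metabolic responses, rose from 25.7, 29.7 and 21.1 CPM in Control to 74, 61.9 and 99 CPM in DKD. Every DKD library held more than every Control library, by a log2 fold change of 1.62 ± 0.21 (edgeR adjusted p 0.0263). The call was lost without Control replicate 1, Control replicate 2, DKD replicate 1 or DKD replicate 3, with adjusted p between 0.0681 and 0.129, while the log2 fold change stayed between 1.41 and 1.75 with each library left out in turn. It was also lost with no filter (0.054) and with the replicate number as a block (0.158). Tmem189 lies over 20.7% of its exonic bases on the opposite strand. The list had 13 members higher and 6 lower, with a median of 0.17.

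Of the 22 upstream kinases and factors that carry signals to immediate-early promoters, 1 was called higher and 0 lower, against 1.16% of all genes called. The list had 9 higher, 13 lower and a median of −0.06. Crem, which binds CRE sites and yields both activating and repressing forms, rose from 10.9, 15 and 12.1 CPM to 22.5, 23.1 and 23.8 CPM. The DKD libraries lay within a narrow range above Control, with a log2 fold change of 0.87 ± 0.15 (edgeR adjusted p 0.0472). The call was lost with each of the 6 libraries left out, with adjusted p between 0.0568 and 0.153, while the log2 fold change stayed between 0.77 and 1.01. It was also lost with library totals as the scaling (0.093), with no filter (0.0865), with the length trend removed (0.0655) and with the replicate number as a block (0.169). The 21 feedback inhibitors, phosphatases and RNA-destabilising proteins that end the response, had 0 past the edgeR threshold, with 14 higher, 7 lower and a median of 0.12. At an unadjusted p under 0.05 there were 3 (14.3%, against 22.6% of all genes). Zfp36l1, which promotes decay of AU-rich transcripts, was measured at 67.1 ± 10.9 and 150 ± 92.4 CPM (1.16 ± 0.39, edgeR adjusted p 0.146), and without DKD replicate 3 the log2 fold change was 0.53. Gm26669 lies over 55.9% of its exonic bases on the opposite strand. Dusp5, a phosphatase of ERK kinases, was measured at 2.54 ± 0.623 and 4.93 ± 1.69 CPM (0.96 ± 0.33, adjusted p 0.152). DESeq2 called both Zfp36l1 and Dusp5.

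Partners and targets of Myc were split between higher and lower. Of 15 members of the MYC-MAX network, which holds the partners and antagonists of Myc, 0 passed with edgeR. In this network 9 were higher and 6 lower, the median was 0.03, and 2 had an unadjusted p under 0.05 (13.3%, against 22.6% of all genes). Mxd3, an antagonist that binds Max, was measured at 0.473 ± 0.0827 and 1.49 ± 0.756 CPM (1.65 ± 0.50, edgeR adjusted p 0.122), and Mxd1, another antagonist, at 17.1 ± 3.16 and 11.8 ± 2.65 CPM (−0.54 ± 0.22, adjusted p 0.202). DESeq2 called Mxd3 and not Mxd1. Of 30 genes known as targets of Myc, 0 passed with edgeR, 17 were higher and 13 lower, the median was 0.04, and 3 had an unadjusted p under 0.05 (10%, against 22.6% of all genes). Odc1, the first enzyme of polyamine synthesis, was measured at 493, 590 and 1672 CPM in Control and 314, 216 and 213 CPM in DKD. Control replicate 3 stood far above the rest, and the log2 fold change of −1.89 ± 0.48 (edgeR adjusted p 0.0879) was −1.13 without it. Ppan, a ribosome assembly factor, was measured at 15.2 ± 2.35 and 21.5 ± 4.52 CPM (0.51 ± 0.19, adjusted p 0.183). DESeq2 called Odc1 and not Ppan.

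**Figure D5:**
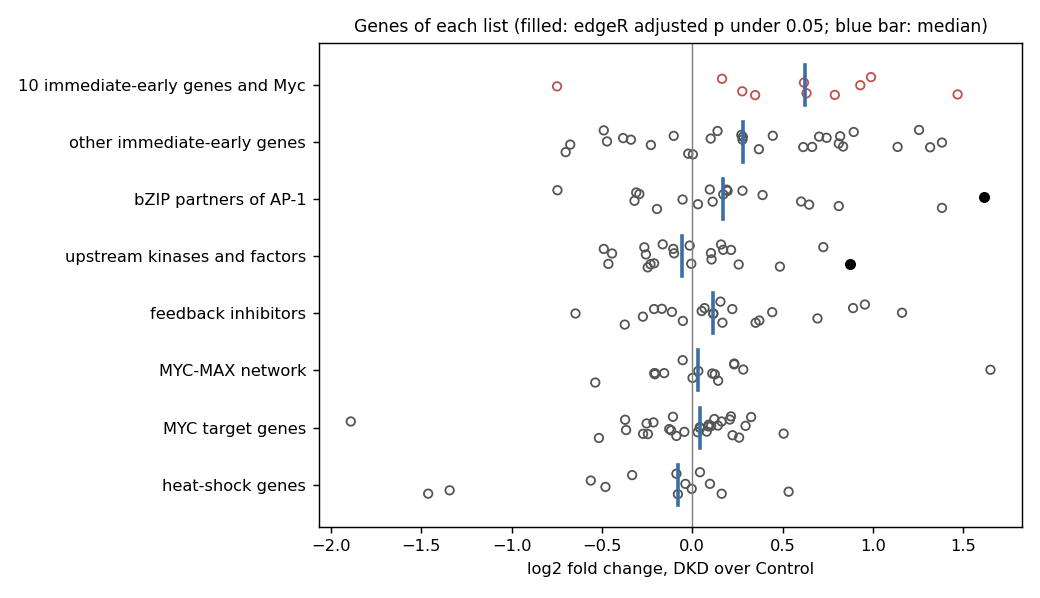
Log2 fold change of DKD over Control for each gene tested (horizontal axis), by list, with a blue bar at the median and filled points for genes past the edgeR threshold. The 10 genes in red have a median of 0.63, the other lists between −0.08 and 0.28, and the filled points are Cebpb and Crem.

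Patterns most like those of Fos, Atf3 and Myc over the 6 libraries were ranked by Pearson's r of log2 CPM among genes of at least 5 CPM, as a description with no test. For Fos the first 5 of 11079 genes were Usp28 (0.996), Trafd1 (0.988), Rasa4 (0.985), Fosl2 (0.980) and Zc3h12a (0.980), of which Fosl2 encodes another Fos family protein. Fosl2 was measured at 25.8, 34 and 13.5 CPM in Control and 23.3, 31.1 and 34.6 CPM in DKD, so it shared the low Control replicate 3 and the high Control replicate 2 with Fos. For Atf3 they were Rassf6 (0.994), N4bp1 (0.984), Fes (0.981), Adprh (0.978) and Piezo1 (0.971). For Myc they were Klhl25 (0.996), Tmem9 (0.996), H2afx (0.994), Triobp (0.993) and Bmp6 (0.992). H2afx, which encodes the histone variant H2AX, was measured at 10.4, 9.93 and 9.2 CPM in Control and 18.7, 16.8 and 30.4 CPM in DKD, with DKD replicate 3 highest as for Myc. An r of at least 0.9 was reached by 191 of 11079 genes with Fos, and of 11078 genes by 122 with Atf3 and 589 with Myc. The named genes are the highest of these many over only 6 points, and all points share the libraries and their scaling.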

How the data were processed

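Polyadenylated RNA from mouse glomeruli was sequenced in 3 Control and 3 DKD libraries. The submitters' processing notes name fastp, HISAT2, StringTie and edgeR with build GRCm39. The tool versions, annotation and strand setting were not given in the sources used here. Per the labels, the library kit keeps the strand. The deposited values are whole-number counts for Ensembl genes. Values of 4 occurred 6267 times against 3129 for 3 and 1993 for 5. Values of 8 occurred 2929 times against 1784 for 7 and 1305 for 9. The values may therefore be rounded estimates at any level rather than numbers of reads, which was not tested. They were analysed as counts throughout.

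The members and all 14 lists were chosen with earlier results of these data known. Symbols came from GENCODE M21 (55141 identifiers matched). The filter was filterByExpr (minimum count 10), scaling TMM, and the test quasi-likelihood (edgeR 4.0.16, R 4.3.3) on a model of group alone. Likeness used log CPM with a prior count of 2. Alternatives included DESeq2 1.42.0 and limma-voom (limma 3.58.1). On simulated data with the same 3 against 3 design, edgeR recovered 23 of 100 genes whose simulated log2 change was 1 and 66 of 100 whose change was 2, and 8 of its 97 calls were unchanged genes.

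All 10 members were named. From each of the lists other than cell type markers the text names up to 4 genes past the threshold, otherwise the 2 with the smallest p, and for Fos, Atf3 and Myc the 5 genes of highest correlation, leaving out predicted and clone-named models.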

Additional observations from a re-analysis of the deposited data

How the results depend on the processing

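No member passed the threshold with edgeR or limma-voom under any scaling, filter, dispersion, block, length or left-out-library setting, and 3 passed with DESeq2: Jun (0.99, adjusted p 0.0429), Jund (0.78) and Myc (1.46). At an adjusted p under 0.1, 2 members passed with edgeR, Jund and Myc, where 7.5% of all genes did. With 1 library left out at a time the log2 fold change ran from −0.072 to 1.04 for Fos, −0.23 to 0.97 for Fosb, −0.033 to 0.44 for Ier3, 0.70 to 1.48 for Jun, 0.31 to 0.88 for Junb, 0.59 to 0.91 for Jund, −1.19 to −0.13 for Egr1, 0.54 to 1.69 for Atf3, 0.37 to 0.82 for Ier2 and 1.04 to 1.64 for Myc. Fos, Fosb and Ier3 changed sign without Control replicate 3, and Fosb also without DKD replicate 2. The cause was not tested. The other 7 members kept their direction under each alternative run, and under settings other than a left-out library so did all 10. Over all genes the log2 fold change was lower for longer transcripts (Spearman rank correlation −0.26). With this length trend removed Ier3 fell from 0.16 to 0.009, Ier2 from 0.63 to 0.50, Junb from 0.62 to 0.50 and Jund from 0.79 to 0.66. Fosb rose from 0.28 to 0.33, and Egr1 moved from −0.75 to −0.63. Scaling by library totals moved the median over all genes to −0.13. Fosb did not pass the filter of at least 1 CPM in 3 libraries.

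Over all genes the count of 228 was 516 with the filter of at least 1 CPM in 3 libraries, 56 with no filter, 2483 with DESeq2, 1478 at an adjusted p under 0.1 and 1 to 386 with 1 library left out (leaving out Control replicate 1 gave 1, replicate 2 gave 13 and replicate 3 gave 386, while leaving out DKD replicate 1 gave 4 and replicate 3 gave 10). With library totals it was 275, of which 101 were higher and 174 lower, against 143 and 85 with TMM. Of the 255 listed genes tested outside the members 5 passed, and 8 did with library totals, 13 with the filter of at least 1 CPM, 1 with no filter, 45 with DESeq2, 3 with the length trend removed, 25 at an adjusted p under 0.1 and 0 to 9 with 1 library left out. With library totals 1 of those 8 was higher, against 2 of the 5. Hspa1a changed sign without Control replicate 2, from −1.46 to 0.33 (range with 1 library left out −1.91 to 0.33).

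The labels do not say whether replicate numbers pair the libraries. Deviations of same-numbered libraries from their group means correlated at −0.18, 0.066 and −0.22, and 1 of 6 libraries correlated best with its own number. This cannot exclude pairing, because the libraries are few and deviations from a group mean cancel within the group. With the number as a replicate block 0 genes passed over all genes and 0 of the listed genes. With the block and the length trend removed 5 and 0 did. The members' block log2 fold changes kept their signs, with Myc at 1.39 (adjusted p 0.185). In the simulation a log2 fold of 1 was recovered for 23 of 100 genes, and most members' differences were smaller than that. The simulation changed randomly picked genes and drew each count independently, with no shift shared by a library. Its rate therefore need not hold for the members.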

Other observations

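Further immediate-early genes of the list, named after their values were seen, fell on both sides. Rhob, a small GTPase, was measured at 110, 86.7 and 61.6 CPM in Control and 123, 149 and 159 CPM in DKD (log2 fold change 0.74 ± 0.22, edgeR adjusted p 0.115). Btg1, an antiproliferative factor, was measured at 76.6, 78.4 and 43 CPM in Control and 106, 114 and 133 CPM in DKD (0.83 ± 0.24, edgeR adjusted p 0.106). Every DKD library lay above every Control library for both.

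Ccn2, a matricellular protein induced by TGF-beta and stretch, was measured at 210, 239 and 130 CPM in Control and 82.8, 177 and 96.3 CPM in DKD, and the groups overlapped (−0.70 ± 0.34, edgeR adjusted p 0.267). Nr4a1, an orphan nuclear receptor of the immediate-early class, was measured at 16.7, 29.6 and 3.46 CPM in Control and 11.9, 22.7 and 11.7 CPM in DKD. As for Fos and Egr1, Control replicate 2 was its highest library and Control replicate 3 its lowest (−0.10 ± 0.66, edgeR adjusted p 0.944).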
